A study of Rattus norvegicus with 241 samples.

Results

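The S phase genes described here were 42 genes whose transcripts accumulate as cells begin and carry out DNA replication, taken as a named list and matched to the tables by symbol ignoring case. Of the 42, 37 were listed in at least 1 of the 16 bulk RNA-seq tables (1 per experiment and sort) and 36 in every one, out of 16820 genes listed in any bulk table. DTL, WDR76, BLM, BRIP1 and E2F8 were in no bulk table and HELLS was in some only. The single-cell tables listed 41 of the 42 in sorted ACI cells, 42 in sorted SD cells and 41 in whole SD glands.

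Before a cell copies its genome, CDC6 and geminin (GMNN) set how many origins are licensed with the MCM2 to MCM7 helicase, and CDC45 and GINS proteins turn the loaded helicase on. PCNA, loaded by RFC proteins, then tethers the polymerases to the fork, while ribonucleotide reductase, thymidylate synthase and thymidine kinase supply deoxynucleotides. Transcription of most of these genes is switched on by E2F factors at the end of G1, so in a tissue such as the peripubertal mammary gland, where ducts grow by division of basal and luminal cells, their RNA is a common readout of the fraction of cells entering S phase. TGFβ signalling is a classical inhibitor of G1 progression in epithelial cells.

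The series held 241 samples from female ACI and Sprague Dawley (SD) rats given the TGFβ receptor kinase inhibitor LY2157299 (TGFBRi, 75 mg/kg by gavage) or its vehicle, of which 202 were bulk RNA-seq samples of sorted mammary cells and 39 were single-cell libraries. Young rats began 10 days of doses at 35 days of age (ACI) or 24 days (SD), and the sorts were CD24+CD29high basal, CD24+CD29low luminal and CD45+ cells. Young ACI rats were collected 0, 7 and 14 days after the last dose, with 3 rats per treatment and day, and young SD rats at day 0, with 4 per treatment. Adult ACI rats of 18 to 24 weeks, virgin or parous, received 10 days of doses and had 4 rats per group, except in CD45+ cells with 3 virgin TGFBRi-treated and 2 parous vehicle rats. In the carcinogen experiment SD rats dosed from 21 days of age received N-nitroso-N-methylurea (NMU, 50 mg/kg) and glands were collected 87 days later from 3 vehicle rats that bore tumors and from TGFBRi-treated rats with (3) or free of (3) tumors, with no tumor-free vehicle group, and sorted EPCAM+ and CD45+ cells came from 3 tumors per treatment. In the estrogen experiment, ACI rats that began 21 days of doses at 38 days of age were labelled with or without an estradiol (E2) pellet. Without E2 there were 4 vehicle and 3 TGFBRi-treated rats. With E2 there were 4 vehicle rats, all with tumors, and 6 TGFBRi-treated rats, of which 4 were free of tumors and 2 bore them. Other than the tumor sorts all tissue was labelled normal mammary gland, young and NMU rats were virgin, and each bulk library came from 1 rat, except that 1 rat of the estrogen experiment was deposited in 4 parts, which were averaged.

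The promoters of 4 of the 5 genes whose RNA fell in luminal cells at day 0 (the fifth, RRM2, had no entry) are shown first, because E2F factors recognise short GC-rich words near the start sites of S phase genes. A RefSeq promoter of 250 bases before to 50 bases after the start, in build GRCr8, was found for 33 of the 42 genes. The sequences are printed 5′ to 3′ in the direction of the gene with the words TTTCCCGC, TTTCGCGC, TTTGCCGC or TTTGGCGC, on either strand, in capitals. MCM3 lies at chr9:30733697-30733996 (minus strand), MCM5 at chr19:13488563-13488862 (plus strand), MCM6 at chr13:42404303-42404602 (minus strand) and TK1 at chr10:103544728-103545027 (minus strand).
MCM3: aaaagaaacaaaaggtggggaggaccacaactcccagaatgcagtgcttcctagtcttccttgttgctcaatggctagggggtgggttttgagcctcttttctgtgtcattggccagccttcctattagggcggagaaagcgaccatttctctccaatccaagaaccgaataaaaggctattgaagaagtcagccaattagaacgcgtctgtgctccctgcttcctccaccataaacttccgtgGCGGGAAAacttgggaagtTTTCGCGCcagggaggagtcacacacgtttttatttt
MCM5: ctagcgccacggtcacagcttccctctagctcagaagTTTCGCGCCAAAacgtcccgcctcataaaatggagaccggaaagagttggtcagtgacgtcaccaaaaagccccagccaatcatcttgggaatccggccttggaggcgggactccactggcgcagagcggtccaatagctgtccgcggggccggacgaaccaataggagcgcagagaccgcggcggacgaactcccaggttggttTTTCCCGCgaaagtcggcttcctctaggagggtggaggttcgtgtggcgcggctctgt
MCM6: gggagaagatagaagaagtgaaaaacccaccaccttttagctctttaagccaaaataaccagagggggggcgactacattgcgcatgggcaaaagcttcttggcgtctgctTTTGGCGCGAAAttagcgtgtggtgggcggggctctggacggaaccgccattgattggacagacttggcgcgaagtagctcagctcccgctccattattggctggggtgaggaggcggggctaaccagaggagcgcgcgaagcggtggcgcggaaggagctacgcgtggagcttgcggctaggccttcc
TK1: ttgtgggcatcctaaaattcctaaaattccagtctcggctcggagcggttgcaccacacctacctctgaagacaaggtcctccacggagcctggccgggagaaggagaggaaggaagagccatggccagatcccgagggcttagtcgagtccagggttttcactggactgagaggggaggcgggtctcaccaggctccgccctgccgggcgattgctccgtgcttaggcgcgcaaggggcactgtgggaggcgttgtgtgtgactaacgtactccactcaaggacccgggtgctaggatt
Such a word was present for 20 of the 33 S phase genes (60.6%) and for 651 of all 27457 genes (2.37%). A gene was counted if any of its promoters held a word. MCM3 held 2 separate words, MCM5 held 2 overlapping words and 1 near the start, MCM6 held 2 overlapping words, and the TK1 window held none of these letters. Counted in the same way, the CCAAT word was present for 60.6% of the S phase genes and 39.6% of all genes.

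The sorts were checked by their markers. In young ACI rats KRT14, a basal keratin, ranged from 18078 to 165960 normalized reads in basal and from 109 to 2394 in luminal libraries, KRT18, a luminal keratin, from 27784 to 124040 in luminal and from 969 to 6017 in basal libraries, and PTPRC, which encodes CD45, from 3657 to 20409 in CD45+ cells and up to 318 elsewhere. Other libraries were less clean. Young ACI CD45+ cells had KRT18 of 1560.5 to 9084.5, reaching above the basal range. In young SD rats KRT14 overlapped between luminal (1823 to 26387) and basal libraries (15763 to 40146). Adult KRT18 reached 31330 in basal and 29682 in CD45+ libraries. The CD45+ libraries of the NMU glands had KRT14 of up to 96977 and PTPRC of at most 3605. The part of such carry-over in the S phase results was not tested. Some libraries stood apart from the rest of their table over all genes, by a median absolute log2 deviation of over 0.65. In young ACI luminal cells these were vehicle replicate 3 at day 7, TGFBRi replicate 1 at day 7 and TGFBRi replicate 3 at day 14, and the same 3 rats plus vehicle replicate 1 at day 14 stood apart in basal cells. The description of that day 7 vehicle library named it treated in both sorts while its title and treatment label named it control, and it was kept as the library labelled vehicle. PCNA, the sliding clamp, and GMNN, the inhibitor of relicensing, both chosen here after their values were seen, were far above the rest in these libraries. PCNA read 18761, 11188 and 8761 in the 3 luminal ones against 1667 to 5669 in the other luminal libraries, and GMNN read 3886, 2245 and 3581 against 233 to 987. Most comparisons that use such libraries are given with all libraries and then also without those that stood apart, a choice made after the data were seen. Others stood apart in NMU luminal (bearing vehicle replicates 1 and 2), adult basal (virgin TGFBRi replicate 3) and adult CD45+ cells (virgin TGFBRi replicate 2).

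The mean log2(normalized count + 1) over the 36 S phase genes listed in every table, given here as a level with no test, moved most in the luminal cells of young ACI rats. In vehicle luminal cells it was 8.36 ± 0.24 (SD, n = 3) at day 0, 9.58 ± 0.33 at day 7 and 7.70 ± 0.17 at day 14. In TGFBRi-treated rats it was 7.46 ± 0.43, 8.65 ± 0.20 and 7.96 ± 0.35 at the same days. The 3 treated luminal libraries lay below the 3 vehicle ones at day 0 and at day 7, and the groups overlapped at day 14. Basal cells gave the same order of days within each treatment: 8.6 ± 0.35, 9.28 ± 0.40 and 8.14 ± 0.52 in vehicle rats and 8.11 ± 0.59, 8.80 ± 0.09 and 8.59 ± 0.33 in treated rats. In CD45+ cells the range was narrower, with 8.6 ± 0.08, 9.05 ± 0.04 and 8.50 ± 0.10 in vehicle rats and 9.04 ± 0.36, 8.85 ± 0.06 and 8.64 ± 0.28 in treated rats. In bulk libraries fewer cells in S phase and less of these RNAs per cell cannot be told apart.

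**Figure D1:**
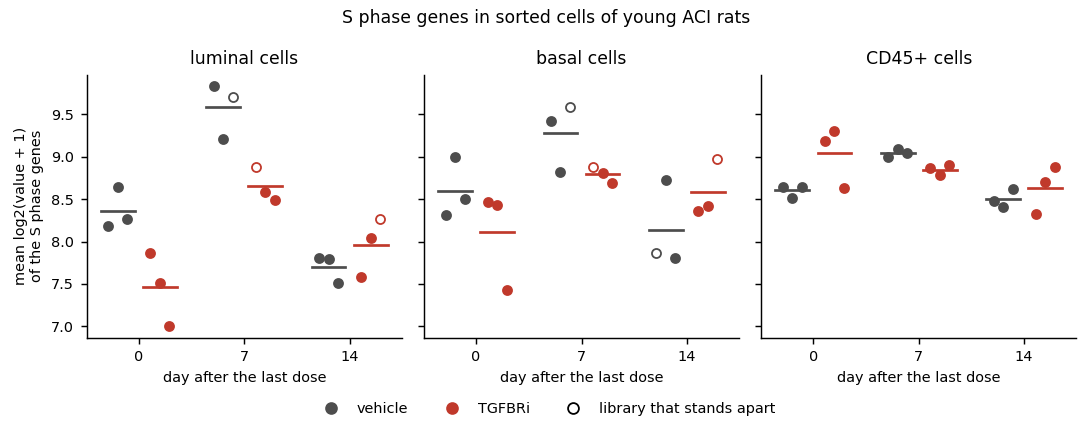
Mean log2(normalized count + 1) of the 36 S phase genes listed in every bulk table (vertical axis) by day after the last dose (0, 7 and 14) in luminal, basal and CD45+ cells of young ACI rats. Each point is 1 rat, vehicle in grey and TGFBRi in red, lines are group means (n = 3) and open points are libraries that stood apart from the rest of their table. Treated luminal libraries lie below vehicle ones at days 0 and 7.

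The first comparison asked what 10 days of TGFBRi did to S phase transcripts in luminal cells on the day dosing ended. Of 36 genes tested, 29 were lower and 7 higher in treated cells, with a median log2 fold change of -0.64 beside 0.21 over all genes tested. With limma and Benjamini-Hochberg adjustment over all genes, 5 S phase genes fell and none rose, where 0.184% of all genes fell and 1.01% were called in either direction. Of the 36, 15 had an unadjusted p below 0.05. The 5 that fell were 3 subunits of the replicative helicase, MCM3, MCM5 and MCM6, and 2 enzymes of deoxynucleotide supply, TK1 and RRM2.

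TK1, the salvage thymidine kinase, read 353, 705 and 551 normalized reads in vehicle replicates 1 to 3 and 69.6, 13.4 and 22.9 in treated replicates 1 to 3 (log2 fold change -4.16, SE 0.62, adjusted p = 0.0197). RRM2, the small subunit of ribonucleotide reductase made in S phase, read 167, 256 and 143 in vehicle and 35.5, 21.7 and 41.6 in treated cells (log2 fold change -2.48, SE 0.35, adjusted p = 0.0190). For both enzymes every treated library was far below every vehicle library. MCM6 read 679, 1282 and 887 in vehicle and 307, 182 and 172 in treated cells (log2 fold change -2.10, SE 0.39, adjusted p = 0.0311). MCM5 read 312, 544 and 303 and 146, 75.2 and 22.9 (log2 fold change -2.53, SE 0.53, adjusted p = 0.0390), and MCM3 read 287, 484 and 321 and 159, 78.6 and 22.9 (log2 fold change -2.4, SE 0.53, adjusted p = 0.0449). These 3 helicase subunits did not overlap between the groups either, and for MCM3 and MCM5 treated replicate 3 was the lowest library.

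**Figure D2:**
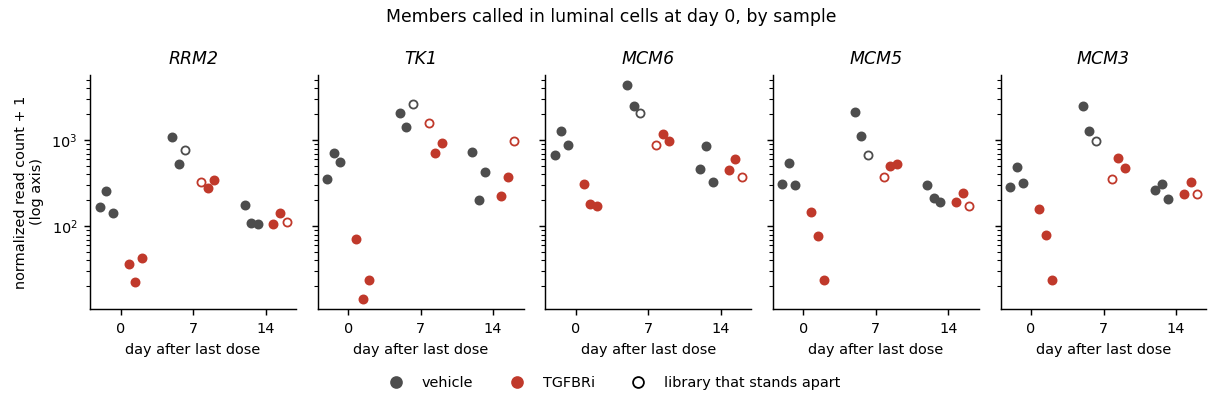
Normalized read count + 1 (vertical log axis) of RRM2, TK1, MCM6, MCM5 and MCM3, the 5 S phase genes that fell in luminal cells at day 0, by day after the last dose (0, 7 and 14). Each point is 1 young ACI rat, vehicle in grey and TGFBRi in red, and open points are libraries that stood apart. The treated rats lie below the vehicle rats at day 0, and at day 14 the groups overlap.

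The other genes are given by role, with CLSPN and TIPIN, described here as acting at the fork, grouped under licensing and firing. All 6 MCM subunits were lower (median log2 fold change -1.62) and all 4 nucleotide supply genes were lower (median -1.81), while the 7 fork and polymerase genes had a median of -0.61, the 6 licensing and firing genes -0.37, the 4 repair genes -0.35 and the 8 chromatin and histone supply genes -0.32. PCNA read 4735, 5449 and 5362 in vehicle and 3934, 3482 and 3438 in treated cells (log2 fold change -0.52, SE 0.55, adjusted p = 0.681), so that its groups did not overlap although it did not pass the test. CDC45, part of the active helicase, read 87.7, 96.2 and 106.1 and 51.2, 63.5 and 2.55 (log2 fold change -2.09, SE 0.78, adjusted p = 0.158). UHRF1, which carries DNA methylation through replication, read 235, 294 and 163 and 78.2, 53.5 and 42.4 (log2 fold change -1.98, SE 0.53, adjusted p = 0.0781). The G1/S cyclin gene CCNE2 overlapped between the groups, with 229, 257 and 139 in vehicle and 284, 241 and 203 in treated cells, as did the licensing factor CDC6, with 41.5, 49.6 and 64.7 and 59.7, 68.5 and 17.8. CLSPN, a checkpoint adaptor at the fork, was low in every library, with 11, 21.9 and 0.829 in vehicle and 28.4, 20.1 and 0 in treated cells.

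The calls at day 0 depended on single rats and on which other days shared the fit. Fitted on the day 0 groups alone, 15 S phase genes fell, where 6.13% of all genes fell. Without treated replicate 2, vehicle replicate 2 or vehicle replicate 3 none of the 5 passed, without treated replicate 3 there were 8, without treated replicate 1 there were 4 and without vehicle replicate 1 there were 3, all lower, and over these 6 fits 0 to 0.501% of all genes fell. Without the libraries that stood apart, none of which was a day 0 library, 13 S phase genes fell where 6.27% of all genes fell: the same 5 with FEN1, MCM7, UHRF1, PRIM1, RRM1, UNG, DSCC1 and MCM4. On the same reads edgeR called RRM2 alone, where 0.0198% of all genes fell, and DESeq2 called 11 lower, where 0.678% did. Treated luminal libraries were shallower, at 8922897 to 18568520 reads against 18895823 to 21160386, and after all libraries were thinned to the lowest total 5 S phase genes were again called lower, where 0.173% of all genes were. The 9 listed of 10 leukocyte markers summed to 57.8 to 141 CPM in treated and 58.2 to 109 in vehicle luminal libraries, 7 of 8 fibroblast markers to 437 to 3307 and 698 to 1441, and the 10 luminal markers to 22396 to 26195 and 20065 to 22461. At most 2 leukocyte markers and no fibroblast or luminal marker were at 0 in any of these libraries, and the part of depth and of these markers in the result was not tested.

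At day 7 all but 1 of the 36 S phase genes were lower in treated luminal cells, with a median log2 fold change of -1.0 beside 0.09 over all genes. None passed limma's test, where 0% of all genes did, and edgeR called none. DESeq2 called 9 lower, where it called 0.975% of all genes lower. By limma 17 had an unadjusted p below 0.05. RRM1, the large subunit of ribonucleotide reductase, had the smallest p, with 3388, 2206 and 1463 in vehicle and 679, 839 and 1137 in treated cells (log2 fold change -1.36, SE 0.33, adjusted p = 0.225). CHAF1B, a histone chaperone subunit of CAF-1, followed with 657, 325 and 681 and 186, 150.0 and 119 (log2 fold change -1.81, SE 0.45, adjusted p = 0.228), and UNG, the uracil DNA glycosylase, with 2484, 1534 and 2878 and 1299, 851 and 834 (log2 fold change -1.19, SE 0.30, adjusted p = 0.242). For all 3 genes, picked for their small p, the lowest vehicle library exceeded the highest treated one. RRM2 at day 7 read 1075, 534 and 774 in vehicle and 324, 276 and 343 in treated cells, and TK1 read 2061, 1409 and 2642 and 1566, 703 and 916. RRM2 stayed apart between the groups, whereas TK1 overlapped, through treated replicate 1, a library that stood apart. Without the libraries that stood apart, which left 2 rats a group at this day, the median was -1.06 and 5 genes fell (RRM1, UNG, MCM6, MCM2 and UHRF1, adjusted p = 0.0111 to 0.050), where 1.35% of all genes fell.

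In vehicle rats nearly all S phase genes of luminal cells were higher at day 7 than at day 0. This comparison shares its vehicle libraries with both treatment comparisons above. Of 36 genes 35 were higher at day 7, with a median log2 fold change of 1.31 beside 0.20 over all genes, and 23 had an unadjusted p below 0.05. RRM2 rose from the day 0 values above to 1075, 534 and 774 (log2 fold change 2.06, SE 0.35, adjusted p = 0.0146). CHAF1B rose from 82.3, 150.2 and 88.7 to 657, 325 and 681 (log2 fold change 2.34, SE 0.45, adjusted p = 0.0273). These 2 passed, where 0.349% of all genes rose, and for each the lowest day 7 library was above the highest day 0 library. Without the libraries that stood apart 17 S phase genes rose, where 3.38% of all genes rose. DESeq2 called 21 higher, where it called 5.27% of all genes higher. Leaving out 1 library gave 7 calls without day 7 vehicle replicate 2, 1 without day 0 vehicle replicate 2 and none without any of the other 4, while 0.0264 to 0.893% of all genes rose over these fits. Fitted on the day 0 and day 7 vehicle groups alone, neither gene was called, where 0.109% of all genes rose. In that fit 21 S phase genes had an unadjusted p below 0.05. By role the median log2 fold changes were 1.81 in nucleotide supply, 1.74 in licensing and firing, 1.45 in the MCM subunits, 1.3 in repair, 0.85 at the fork and 0.18 in chromatin and histone supply.

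By day 14 the S phase genes of vehicle luminal cells were below day 0, with 33 of 36 lower and a median log2 fold change of -0.67. SLBP, which binds the stem loop of replication-dependent histone mRNAs, fell from 4471, 5156 and 4312 to 1314, 2529 and 1098 (log2 fold change -1.59, SE 0.33, adjusted p = 0.0451). It was the 1 call of 36, where 0.204% of all genes fell, 10 had an unadjusted p below 0.05, and it was lost without any 1 library other than day 14 vehicle replicate 2. Without the libraries that stood apart 6 fell: SLBP, ATAD2, CCNE2, USP1, NASP and PCNA, where 2.5% of all genes fell. Among the 6 were 3 chromatin and histone supply genes (SLBP, ATAD2 and NASP) and the cyclin gene CCNE2, which read 99.5, 86.8 and 98.8 at day 14, below all 3 of its day 0 values. No MCM or nucleotide supply gene was among them.

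At day 14 most S phase genes were higher, not lower, in treated luminal cells on the deposited scaling. Scaled to library totals (mean log2 CPM), the level was 4.12, 3.90 and 3.85 in vehicle and 3.93, 4.22 and 3.78 in treated libraries. On that scale the level showed no clear rise. Of 36 S phase genes 25 were higher and 11 lower, the median was 0.23, and none was called by limma or edgeR, where 0% of all genes were, with 7 unadjusted p below 0.05 and 1 call by DESeq2 (1.69% of all genes). CASP8AP2, which acts in histone gene expression, had the smallest p, with 155, 107.4 and 124 in vehicle and 238, 249.7 and 458 in treated cells (log2 fold change 1.24, SE 0.34, adjusted p = 0.262). USP1, which removes ubiquitin from PCNA, read 414, 345 and 428 and 518, 735 and 730.0 (log2 fold change 0.73, SE 0.26, adjusted p = 0.442), and SLBP read 1314, 2529 and 1098 and 2235, 3863 and 2593 (log2 fold change 0.87, SE 0.33, adjusted p = 0.466). The groups of CASP8AP2 and USP1 did not overlap and those of SLBP did. The treatment effect at day 14 minus that at day 0 was positive for 34 of 36 genes (median 0.96) and that at day 14 minus day 7 for 34 of 36 (median 1.21), with 14 unadjusted p below 0.05 in each and no call by limma or edgeR and 2 by DESeq2 (0.349% and 0.349% of all genes). The background was 0.00659% and 0%. The effect at day 7 minus that at day 0 had a median of -0.15, with no call by limma, edgeR or DESeq2, 2 unadjusted p below 0.05 and a background of 0%. With the libraries that stood apart left out, the day 14 median was 0.11 with 22 of 36 higher, and the median effects were 0.88 for day 14 minus day 0, 1.02 for day 14 minus day 7 and -0.19 for day 7 minus day 0. None of these 4 gave a limma call, with 9, 18, 19 and 4 unadjusted p below 0.05. Of 48 genes of the G2/M list 43 were lower in treated luminal cells at day 0 (median -0.91) and 48 at day 7 (median -1.10), and of 35 other replication genes 26 were lower at day 0 (median -0.78) and 35 at day 7 (median -1.06).

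**Figure D3:**
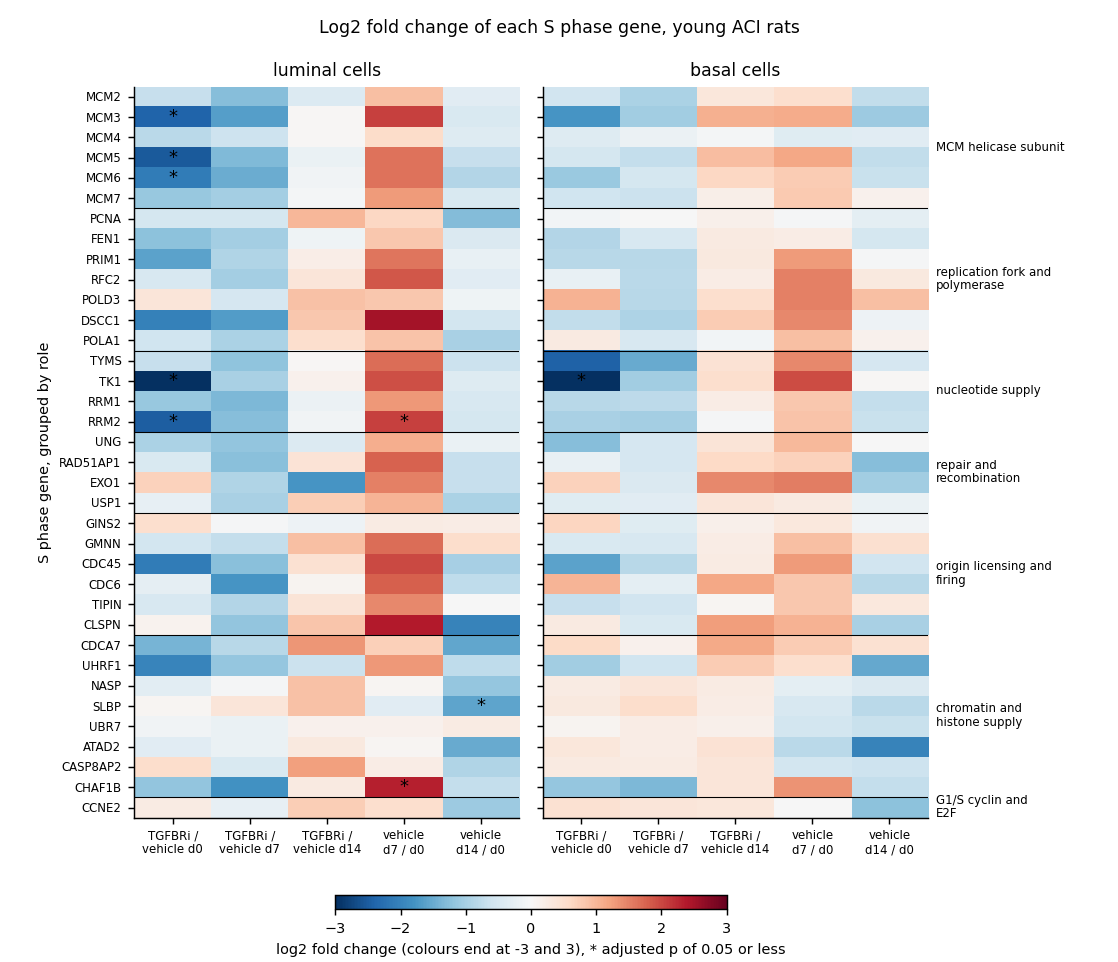
Log2 fold change (colour, ends at -3 and 3) of each of the 36 S phase genes (rows, grouped by role) in 5 comparisons (columns) of luminal and basal cells of young ACI rats. Stars mark adjusted p of 0.05 or less in limma. The left 2 columns of the luminal panel are mostly blue and its vehicle day 7 column is mostly red. The chromatin and histone supply rows are paler in the median at day 0 and in the vehicle day 7 column. Among them UHRF1 at day 0 and CHAF1B in the vehicle day 7 column are not pale.

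In basal cells of the same rats 23 of 36 genes had lower means after TGFBRi at day 0 (median -0.43 beside 0.30 over all genes) and TK1 alone fell, where 0.837% of all genes fell. TK1 read 411, 615 and 158 in vehicle and 74.5, 12.8 and 0 in treated basal cells (log2 fold change -5.08, SE 1.07, adjusted p = 0.0241), with no overlap. edgeR called none and DESeq2 called 2 lower (2.25% of all genes), and leaving out treated replicate 2 or vehicle replicate 1 or 2 left no call. RRM2 read 254, 418 and 356 and 183, 172 and 160.2 and also did not overlap (log2 fold change -0.96, SE 0.42, adjusted p = 0.16), whereas MCM5, at 277, 408 and 238 and 193, 294 and 157, did. Without the libraries that stood apart 7 S phase genes fell (TK1, TYMS, FEN1, UNG, MCM3, MCM6 and RRM1). POLD3, a subunit of DNA polymerase delta, rose. In that fit 21.7% of all genes were called in either direction, close to the share of the S phase genes. Treated basal libraries at day 0 held 4194912 to 15136358 reads against 12382292 to 18781674, and the 11 basal markers, at most 1 of them at 0, summed to 7001 to 16404 CPM against 18449 to 21058 in vehicle, the 7 fibroblast markers to 2701 to 33222 against 3482 to 8933 and the 9 leukocyte markers to 192 to 435 against 70.6 to 116. The part of these shifts in the basal result was not tested.

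At day 7, 29 of 36 were lower in treated basal cells (median -0.50) and at day 14, 33 were higher (median 0.35), with no call at either day by limma, edgeR or DESeq2 and with 3 and 1 unadjusted p below 0.05. The background was 0.00639% at day 7 and 0% at day 14. The smallest p at day 7 was that of RRM2 (log2 fold change -1.02, SE 0.42, adjusted p = 0.827), with 764, 331 and 882 in vehicle and 229, 335 and 349.7 in treated basal cells, then CHAF1B (-1.36) and TYMS (-1.51). At day 14 the smallest were CDCA7 (1.14), CDC6 (1.17) and MCM5 (0.93), and without the libraries that stood apart the count at day 14 was 20 higher and 16 lower with a median of 0.05. In vehicle basal cells 28 of 36 were higher at day 7 than at day 0 (median 0.80), with no limma or edgeR call, 7 unadjusted p below 0.05 and 2 DESeq2 calls (3.41% of all genes), and 28 were lower at day 14 (median -0.55), with no limma or edgeR call, 3 unadjusted p below 0.05 and 2 DESeq2 calls (2.6% of all genes). The background was 0.192% and 0.0384%. POLD3 led at day 7 (log2 fold change 1.52, SE 0.45, adjusted p = 0.191), followed by RFC2 (1.51) and PRIM1 (1.28). ATAD2, a chromatin ATPase, led at day 14, with 1957, 2579.7 and 2287 at day 0 and 394, 737 and 609 at day 14 (log2 fold change -2.01, SE 0.35, adjusted p = 0.0511), without overlap. These vehicle libraries are shared with the treatment comparisons. The effect at day 14 minus day 0 was positive for 31 of 36 genes in basal cells (median 0.76), with no call by limma or edgeR, 6 unadjusted p below 0.05, 1 DESeq2 call (1.64% of all genes) and a limma background of 0.00639%. The medians without the libraries that stood apart were -0.47 for treatment at day 7, 0.75 for vehicle day 7 and -0.24 for vehicle day 14 against day 0, and 0.46 for the effect at day 14 minus day 0. Among these only vehicle day 14 gave a limma call, 1 gene, where 0.868% of all genes fell, and the unadjusted p below 0.05 numbered 2, 10, 7 and 3.

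Basal and luminal libraries, which the authors had scaled together, were compared in vehicle rats. At day 0, 4 of 36 were called (UNG lower and ATAD2, CASP8AP2 and USP1 higher in basal cells) where 20.5% of all genes were, at day 7 UNG alone where 14.7% were, and at day 14, 8 where 19.3% were. UNG was lower in basal cells at every day, with 277, 407 and 215 in basal and 847, 1202 and 1142 in luminal cells at day 0 (log2 fold change -1.86, SE 0.42, adjusted p = 0.00130), 599, 326 and 941 and 2484, 1534 and 2878 at day 7 (log2 fold change -1.96, SE 0.42, adjusted p = 0.000961). The groups of UNG did not overlap at either day. At day 14 USP1, SLBP, CASP8AP2, NASP, PCNA and ATAD2 were higher and UNG and GINS2 lower in basal cells. SLBP had a log2 fold change of 1.54 (SE 0.31, adjusted p = 0.000419) and NASP of 1.51 (SE 0.34, adjusted p = 0.00162). In this fit the share of S phase genes called was below that of all genes at days 0 and 7 and near it at day 14. With the rat as a replicate block, since both sorts came from the same 18 rats, the counts were 11, 7 and 15, where 34.3%, 26.1% and 32.1% of all genes were called.

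In CD45+ cells 29 of 36 genes were higher in treated rats at day 0, with a median of 0.50 beside -0.04 over all genes. None was called by limma or edgeR, where 2.85% of all genes were by limma, 9 had an unadjusted p below 0.05 and DESeq2 called 2 higher (2.37% of all genes). POLD3 read 337, 289 and 300.3 in vehicle and 613, 480.3 and 559.5 in treated CD45+ cells (log2 fold change 0.83, SE 0.25, adjusted p = 0.0850), and FEN1, the flap endonuclease of Okazaki fragments, 484, 424 and 395 and 907, 849 and 603 (log2 fold change 0.84, SE 0.28, adjusted p = 0.122). Neither gene overlapped between the groups, and RRM1 followed (log2 fold change 0.87, SE 0.32, adjusted p = 0.154). At day 7 the median was -0.15 and at day 14 it was 0.03, with no call by limma, edgeR or DESeq2 and with 2 and 0 unadjusted p below 0.05 and a background of 0% and 0%. In vehicle CD45+ cells 30 of 36 were higher at day 7 than at day 0 (median 0.41), with no call by limma, edgeR or DESeq2, 3 unadjusted p below 0.05 and a background of 0%. Between day 14 and day 0 they split into 18 higher and 18 lower, with no call by limma or edgeR, 8 unadjusted p below 0.05, 1 DESeq2 call (3.18% of all genes) and a limma background of 0.129%.

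Young SD rats at day 0, sorted the same way, gave no call among the S phase genes. In luminal cells 21 of 36 were lower (median -0.23, and 0.06 without treated replicate 4), in basal cells 23 (median -0.28) and in CD45+ cells 12 (median 0.15). Leaving out 1 rat, the median ran from -0.53 to -0.10 in basal and from 0.08 to 0.26 in CD45+ cells. None was called by limma, edgeR or DESeq2 in any sort, with 0, 0 and 3 unadjusted p below 0.05, and the background was 0%, 0% and 0%. TK1 in SD luminal cells read 109.6, 851, 1879 and 406 in vehicle and 1409, 216, 601 and 77.9 in treated rats, and MCM5 read 447, 566, 563 and 308 and 921, 191, 338 and 137. Both overlapped widely, and for both treated replicate 1 was the highest of its group. The difference between the SD and ACI effects was not tested in bulk, since the tables were normalized separately.

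In adult ACI rats, whose tables were normalized apart from those of young rats, the mean level in luminal cells was 7.01 ± 0.31 (n = 4) in virgin vehicle, 6.87 ± 0.94 in virgin treated, 7.18 ± 0.74 in parous vehicle and 7.16 ± 0.37 in parous treated rats. Treated virgin replicate 4, the rat with the highest basal level too, read 8.23 against 6.65, 6.57 and 6.05 in the other 3. Without it the virgin difference of -0.14 was -0.59 and the groups did not overlap, and without treated replicate 3 it was 0.14. For parity the difference of 0.17 was -0.11 without parous vehicle replicate 1. No S phase gene passed the test for parity in vehicle rats. Of 36 genes 25 were higher in parous luminal cells (median 0.10) and 11 in parous basal cells (median -0.21), and of 37 genes 27 were higher in parous CD45+ cells (median 0.18), with no call by limma, edgeR or DESeq2 and 2, 1 and 1 unadjusted p below 0.05. The background was 0%, 0% and 0%. NASP, a histone chaperone, had the smallest p in luminal cells, with 1599, 1060.3, 946 and 1101 in virgin and 717, 600.1, 904 and 524 in parous rats (log2 fold change -0.78, SE 0.33, adjusted p = 0.478), without overlap. SLBP (0.58) and PRIM1 (0.74) followed. In basal cells CDCA7, the partner of the remodeler HELLS, read 25.5, 62.5, 55.1 and 52.9 in virgin and 60.4, 1.09, 6.22 and 0 in parous rats (log2 fold change -3.10, SE 1.33, adjusted p = 1.00), with parous replicate 1 among the virgin values. In CD45+ cells CLSPN read 0, 1.27, 4.36 and 0.923 in virgin and 22.2 and 10.9 in the 2 parous rats.

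TGFBRi in adult rats gave 1 call. SLBP rose in virgin basal cells, with 2856, 1630.5, 1788 and 1460.2 in vehicle and 5115, 2662, 6647 and 7310.0 in treated rats (log2 fold change 1.44, SE 0.36, adjusted p = 0.0225), where 2.5% of all genes rose. As a share of the S phase genes this 1 call was near that of all genes. The groups overlapped through treated replicate 2, and without treated replicate 3, which stood apart, the adjusted p was 0.0580, while leaving out treated replicate 4 or vehicle replicate 2, 3 or 4 also ended the call. In that comparison 16 S phase genes were higher and 20 lower (median -0.25, the same as over all genes). The level rested on single rats: it was 7.11, 6.77, 6.39 and 9.22 in treated replicates 1 to 4 and 7.08 to 8.48 in vehicle rats. The difference in mean level was -0.27 with all rats, -0.89 without treated replicate 4 and 0.06 without treated replicate 3, and over the fits that left out 1 rat the median ran from -0.73 (without treated replicate 4) to 0.14 (without vehicle replicate 2). In the other 5 comparisons the medians lay between -0.20 and 0.30, with no call by limma, edgeR or DESeq2 and 0 to 2 unadjusted p below 0.05. The background was 0% in virgin and 0.0281% in parous luminal cells, 0.00744% in parous basal cells, and 0.022% and 0% in CD45+ cells. Leaving out 1 rat, the luminal medians ran from -0.39 to -0.004 in virgin and from -0.39 to -0.01 in parous rats. The parous basal median ran from -0.30 to 0.06. In CD45+ cells the ranges were 0.08 to 0.50 in virgin and 0.10 to 0.47 in parous rats. Without the CD45+ library that stood apart the virgin CD45+ median of 0.24 was 0.14, with no limma call and 3 unadjusted p below 0.05.

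In grossly normal glands of NMU-treated SD rats the S phase level of luminal cells was 6.21 ± 0.35 (n = 3) in vehicle rats. It was 6.87 ± 0.57 in treated rats with tumors and 5.95 ± 0.22 in treated rats without. Scaled to library totals (mean log2 CPM), it read 2.45, 2.07 and 2.53 in vehicle rats. On that scale tumor-bearing treated rats read 2.75, 3.64 and 3.28 and tumor-free ones 2.44, 2.47 and 2.35, so the tumor-free group was not lower than vehicle. Between the tumor-bearing groups the median of the 36 genes was 0.35 beside -0.26 over all genes, with 20 higher, and without treated replicate 2 it was -0.09 and the difference in level 0.35 in place of 0.67. None was called by limma, where 0.212% of all genes were, 7 had an unadjusted p below 0.05, edgeR called 2 (1.85% of all genes) and DESeq2 6 (7.62%). MCM5 read 44, 51.8 and 27.7 in vehicle, 172, 534 and 168 in tumor-bearing treated and 142, 95.6 and 68.1 in tumor-free treated rats (log2 fold change 2.62, SE 0.63, adjusted p = 0.0642 for the tumor-bearing groups). MCM6 read 60.04, 69 and 136, 246, 411 and 430.1 and 124, 121 and 40.1 (log2 fold change 2.08, SE 0.59, adjusted p = 0.102). For both the tumor-bearing treated libraries were all above the vehicle libraries. TK1 read 24.0, 86.3 and 9.51, 370.3, 1070.4 and 74.7 and 10.1, 57.7 and 39.1 and overlapped (log2 fold change 3.45, SE 0.98, adjusted p = 0.105). Without the 2 vehicle libraries that stood apart, 1 vehicle rat was left, which was assumed to vary like the other groups, the median was 0.76 and the adjusted p of MCM5 was 1.00. MCM6 was chosen here after its values were seen.

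Basal cells of the same tumor-bearing rats had levels of 6.04, 7.53 and 6.41 against 6.80, 6.11 and 6.17 in vehicle, and the difference of 0.30 was -0.14 without treated replicate 2. They gave a median of 0.26 (-0.18 without that rat) beside -0.25 over all genes with 21 of 37 higher, no call by limma or edgeR where 1.31% of all genes were called by limma, 8 unadjusted p below 0.05 and 5 DESeq2 calls (7.88% of all genes). The largest of the vehicle MCM3 values was below the smallest treated one, at 61.7, 63.6 and 152 and 242, 920.0 and 453 (log2 fold change 2.45, SE 0.68, adjusted p = 0.0829), and MCM3 too was chosen after its values were seen. Tumor-free treated against vehicle glands, which share those vehicle rats, had medians of -0.32 in luminal and -0.16 in basal cells. Leaving out 1 rat gave -0.43 to -0.05 in luminal and -0.31 to 0.01 in basal cells. There was no call by limma or edgeR, with 5 and 0 unadjusted p below 0.05. DESeq2 gave 1 call in luminal cells (9.65% of all genes) and 0 in basal cells. The luminal median without the libraries that stood apart was -0.12, with no limma call and 3 unadjusted p below 0.05. The background was 0.948% and 0%. The CD45+ medians were -0.04 for tumor-bearing and -0.09 for tumor-free treated rats, with no call by limma, edgeR or DESeq2, 1 and 2 unadjusted p below 0.05 and backgrounds of 0.015% and 0%. In the tumors themselves 29 of 37 S phase genes were higher in treated CD45+ cells (median 0.65) and 26 of 36 in EPCAM+ cells (median 0.24, and -0.08 without vehicle replicate 2), with no call by limma, edgeR or DESeq2, 4 and 0 unadjusted p below 0.05 and a background of 0% and 0%.

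Estradiol was compared in vehicle rats of the estrogen experiment, where all rats with a pellet bore tumors and none without did, so that hormone and tumor cannot be told apart. The S phase level of luminal cells was 6.92 ± 0.69 (n = 4) without and 7.46 ± 0.14 (n = 4) with E2, and 7.68 ± 0.19 (n = 4) in tumor-free treated rats with E2. Vehicle replicate 2 without E2 read 7.94 and the other 3 read 6.47 to 6.78. With that rat left out the E2 difference of 0.53 was 0.87, without overlap. The difference of treated from vehicle rats without E2 went from -0.24 to 0.10. Scaled to library totals (mean log2 CPM), vehicle rats read 2.93, 3.63, 2.99 and 2.71 without and 3.43, 3.21, 3.11 and 3.31 with E2. The E2 difference was smaller on that scale. Of 36 genes 21 were higher with E2 (median 0.29), none was called by limma or edgeR where 1.48% of all genes were by limma, 8 had an unadjusted p below 0.05 and DESeq2 called 2 (4.59% of all genes). MCM2, a helicase subunit, read 189, 239, 268 and 245 without and 912, 744, 344 and 498 with E2 (log2 fold change 1.32, SE 0.35, adjusted p = 0.0718). The 2 groups did not overlap. RRM2 read 6.36, 161, 0 and 0 without and 123, 87.0, 66.2 and 39.5 with E2 (log2 fold change 3.65, SE 1.22, adjusted p = 0.152), and here the rat with the highest value was one without E2. CLSPN had no read in any of the 4 rats without E2 and 0, 31.7, 5.64 and 25.2 with E2, so no fold change is given. In CD45+ cells the median was 0.00, with GINS2, UNG and MCM7 of smallest p (0.48, -0.34 and -0.28 on the log2 scale) and no call by limma, edgeR or DESeq2, 2 unadjusted p below 0.05 and a background of 0.282%. Treatment within this experiment was tested in comparisons that share the vehicle rats above. Medians lay between -0.19 and 0.11 over both sorts, with no call by limma or edgeR in any of 6 comparisons. There were 1 to 4 unadjusted p below 0.05, 1 DESeq2 call in luminal cells without E2 (0.11% of all genes) and none elsewhere. Leaving out 1 rat turned the sign of some medians. Without E2 they ran from -0.24 to 0.08 in luminal and from -0.07 to 0.08 in CD45+ cells. In CD45+ cells of tumor-bearing treated rats with E2 the range was -0.45 to 0.14, and the other medians kept their sign. The background in luminal cells was 0.0147% without E2, 0.00736% for tumor-bearing and 0.0147% for tumor-free treated rats with E2, and in CD45+ cells it was 0%, 0.0223% and 0%.

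**Figure D4:**
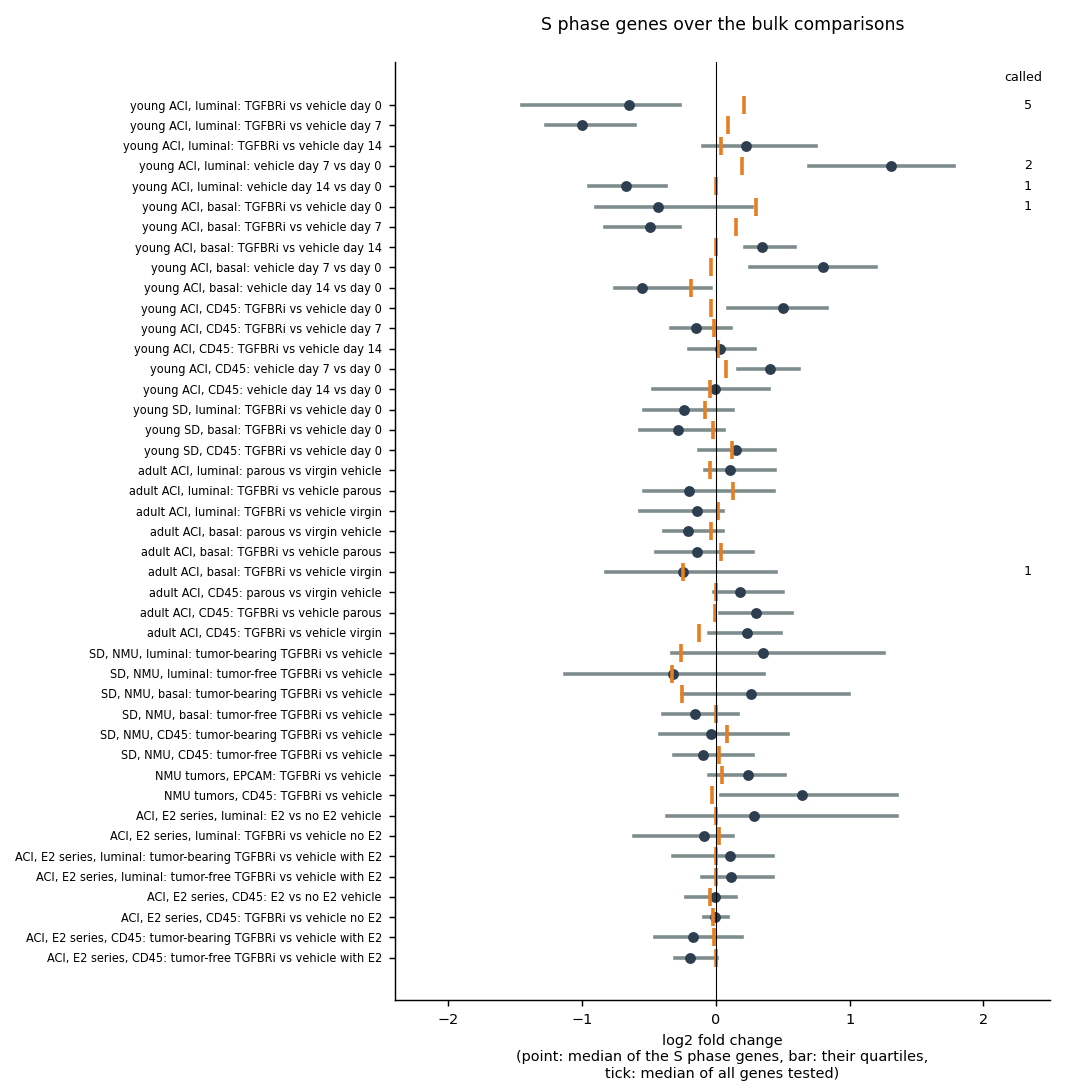
Median log2 fold change of the S phase genes (point) with their quartiles (bar) in each bulk comparison within 1 sort (rows), beside the median of all genes tested (tick). Numbers at the right count the S phase genes called by limma. The luminal day 7 points of young ACI rats, at -1.0 for treatment and 1.31 for vehicle against day 0, lie far from their ticks, and 5 of these comparisons have a call.

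Single-cell libraries of the day 0 gland let the same genes be followed within cell classes. Sorted basal and luminal cells came from 3 vehicle and 3 TGFBRi-treated ACI rats (16762 cells) and 3 vehicle and 6 treated SD rats (39766 cells), and whole glands from 3 vehicle and 6 treated SD rats (103524 cells). Classes were named from markers after clustering without the S phase, G2/M, other replication, histone and mitochondrial genes, and a class is called by the cell type its markers resemble. In the 3 epithelial classes of both sorted experiments the largest cluster differed between treatments: cluster 0 held 71.4% of treated and cluster 1 held 57.6% of vehicle basal-like ACI cells, clusters 6 and 7 held 87.0% and 89.8% of luminal progenitor-like ACI cells, and clusters 2 and 4 held 62.8% and 58% of mature luminal-like ACI cells. In SD rats clusters 4, 98.3% of it from 1 rat, and 1 held 29.3% and 65% of basal-like, 0 and 2 held 38.7% and 82.4% of luminal progenitor-like and 3 and 10 held 62.9% and 63.5% of mature luminal-like cells. UMIs were summed per rat and class, and edgeR log2 fold changes were called at an adjusted p of 0.1, with SE from DESeq2.

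In sorted ACI cells none of the 5 genes that fell in bulk luminal cells was called in either luminal class, and RRM2 was too sparse to be tested in luminal progenitor-like cells. In luminal progenitor-like cells MCM6 had 33.8, 10.3 and 18.1 CPM (UMIs scaled to equal library totals) in the 3 vehicle rats and 21.1, 19.7 and 9.94 in the treated rats (log2 fold change -0.04, SE 0.34, adjusted p = 0.958), and MCM5 had 8.77, 0.986 and 5.41 and 4.90, 7.83 and 1.61 (log2 fold change 0.13, SE 0.56, adjusted p = 0.892). TK1 rested on 1 to 31 UMIs a rat, with 5.67, 0.493 and 2.37 and 1.84, 4.82 and 0.537 CPM. All 3 genes overlapped between the groups. The single-cell rats were other rats than those sorted for bulk, and the difference between the 2 assays was not tested.

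Other members were called in ACI cells, at shares below those of all genes. In basal-like cells 9 of 36 rose and 3 fell, where 41.7% of all genes were called. In luminal progenitor-like cells 2 of 31 rose and 5 fell (33.2% of all genes), and in mature luminal-like cells 3 of 35 rose and 5 fell (30.7% of all genes). GMNN rose in basal-like cells, from 23.4, 22.2 and 13.6 CPM in vehicle to 53, 35.2 and 44.8 in treated rats (log2 fold change 1.37, SE 0.21, adjusted p = 0.00247), and in luminal progenitor-like cells, from 25.6, 25.1 and 15.4 to 62.5, 48.8 and 49.96 (log2 fold change 1.66, SE 0.23, adjusted p = 0.000654). It did not overlap between treatments in either class and was called in all 6 fits that left out 1 rat. NASP rose in basal-like cells, from 256, 219.6 and 143 to 309.6, 317 and 391 (log2 fold change 0.95, SE 0.19, adjusted p = 0.0133). POLA1, the catalytic subunit of primase-polymerase alpha, fell in luminal progenitor-like cells, from 42.8, 30.6 and 35.1 to 19.9, 20.9 and 15.0 (log2 fold change -0.63, SE 0.22, adjusted p = 0.0118), and TIPIN, of the fork protection complex, fell in mature luminal-like cells, from 17.9, 15.2 and 13.7 to 9.52, 8.68 and 6.73 (log2 fold change -0.71, SE 0.25, adjusted p = 0.0140). None of these 3 overlapped between the groups. CASP8AP2 fell in all 3 classes (-0.51, -0.53 and -0.41), POLD3 fell in the basal-like and luminal progenitor-like classes (-0.62 and -0.92), and BLM, a helicase of recombination, in both luminal classes (-0.88 and -0.60). The largest further changes in basal-like cells were MCM5 (1.05) and DTL (1.02), and in luminal progenitor-like cells WDR76 (-1.78), which rested on 1 to 20 UMIs a rat.

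In sorted SD cells most S phase genes were higher in treated rats in all 3 classes. Bulk SD cells at day 0 had medians of -0.23 in luminal (0.06 without treated replicate 4) and -0.28 in basal cells, with no call. This difference between the assays was not tested. In luminal progenitor-like cells 33 of 39 were higher (median 1.49), with 17 called higher and CASP8AP2 lower, where 18.4% of all genes rose and 36.1% were called. In mature luminal-like cells 29 of 38 were higher (median 0.76), with 20 called higher and CASP8AP2 and WDR76 lower, where 17.6% of all genes rose. In basal-like cells 29 of 40 were higher (median 0.50), with 6 called higher and CASP8AP2 lower, where 18.1% rose. The share of S phase genes called higher in basal-like cells was thus below that of all genes.

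In luminal progenitor-like SD cells MCM5 had 1.46, 4.83 and 0.549 CPM in the 3 vehicle rats and 1.25 to 46.1 (median 9.85) over the 6 treated rats, lowest to highest (log2 fold change 3.34, SE 1.06, adjusted p = 0.0522). DSCC1, a subunit of an alternative clamp loader, had 1.87, 3.53 and 0.440 and 0.780 to 43.1 (median 10.7) (log2 fold change 3.50, SE 1.07, adjusted p = 0.0481). CDC45 had 0.974, 0.784 and 0.440 and 0.390 to 15.5 (median 3.65) (log2 fold change 3.32, SE 0.84, adjusted p = 0.0479). For each the 2 highest rats were SD11 and SD12, and the rat SD14 lay within the vehicle range or below it. For MCM5 and DSCC1 rat SD9 was also near the vehicle values. TK1 (3.15), UHRF1 (3.06), CHAF1B (2.90), CDC6 (2.64) and MCM6 (2.47) completed the 8 largest rises. Leaving out any 1 of the 3 vehicle rats left no call, leaving out SD11 or SD12 left 10 and leaving out SD14 gave 27, while the share of all genes called ran from 0.0178 to 43.7% over the 9 such fits.

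In mature luminal-like SD cells TK1 had 0.792, 1.43 and 0.640 CPM in vehicle and 1.60 to 13.4 (median 8.6) in treated rats (log2 fold change 3.43, SE 0.65, adjusted p = 0.015), on 3 to 7 UMIs a vehicle rat. All 6 treated rats were above all 3 vehicle rats. MCM6 had 7.24, 9.55 and 5.92 and 5.97 to 30.0 (median 20.0) (log2 fold change 1.68, SE 0.42, adjusted p = 0.0255), RRM2 had 1.58, 0.477 and 0.480 and 0.757 to 6.32 (median 4.22) (log2 fold change 2.18, SE 0.67, adjusted p = 0.0385), and UHRF1 had 1.70, 0.477 and 0.80 and 0.505 to 7.21 (median 5.47) (log2 fold change 2.35, SE 0.67, adjusted p = 0.0350). For these 3 genes SD14 was the lowest treated rat and lay within the vehicle range. DSCC1 (2.62), CDC45 (2.10), BRIP1 (1.98) and MCM5 (1.46) also rose, and 9 of the 22 calls held in all 9 fits that left out 1 rat. In basal-like cells TK1 (2.97), CDC45 (1.99), DSCC1 (1.62), MCM5 (1.58), MCM7 (0.76) and SLBP (0.51) rose and CASP8AP2 fell (-0.71), none of them in all 9 such fits, and the count ran from 0 to 15 over them, while 3.83 to 41.2% of all genes were called. MCM5 had 2.89, 7.65 and 2.18 in vehicle and 3.02 to 14.5 (median 10.6) in treated basal-like cells, and these overlapped. The G2/M list, counted from the same UMIs, had 45 of 49 genes higher in luminal progenitor-like (median 2.07), 43 of 49 in mature luminal-like (median 1.98) and 45 of 49 in basal-like cells (median 1.44).

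Cells in which S phase transcripts were seen together were counted after each cell was thinned to 2000 UMIs, as cells with UMIs of at least 5 of the S phase genes. In SD luminal progenitor-like cells the share was 0.876, 2.22 and 0.306% in the 3 vehicle rats and 0.267 to 19.2% in the treated rats, with SD11 at 13.4% and SD12 at 19.2% and the other 4 treated rats at 0.267 to 2.49%. Median depth was 14683 UMIs per cell in SD11 and 8953 in SD12, 6049.5 to 7321 in the other treated rats and 4702, 9798 and 6188 in the vehicle rats. Unthinned, the same shares ran from 13.2 to 47.3% in vehicle and 10.2 to 65.9% in treated rats. In mature luminal-like cells the thinned share was 0.502, 0.662 and 0.375% in vehicle and 0.188 to 3.74% in treated rats, where 5 of the 6 treated rats were above every vehicle rat. In basal-like SD cells it was 2.42, 4.47 and 1.78% and 0.959 to 6.02%, and in ACI luminal progenitor-like cells 3.31, 1.3 and 1.29% in vehicle and 1.85, 2.39 and 0.270% in treated rats, both overlapping. No class of these libraries is known to lack such cells, so no background share was set: fibroblast-like cells of the whole gland, thinned to the same depth, gave 0.864 to 1.33% in vehicle and 0.421 to 3.16% in treated rats. In mature luminal-like SD cells SD11 read 3.74% and SD12 3.29%. In whole glands ly4 (8.66%) and veh2 (5.52%) were highest in luminal progenitor-like cells, and ly11 (8.43%), ly6 (5.92%) and veh2 (3.58%) in mature luminal-like cells. Among the clusters of sorted SD cells, cells with UMIs of at least 5 S phase genes were most frequent in a luminal progenitor-like one of 1010 cells from 8 rats, where they were 42% and 1 rat gave 45.6% of the cells. Its luminal progenitor marker score was 0.045, as log2 over the other clusters. Such clusters were found in each epithelial class of the sorted cells: a basal-like SD cluster of 647 cells reached 32.5% and a mature luminal-like one of 288 cells 30.6%, and in ACI cells a luminal progenitor-like cluster of 48 cells reached 43.8%, a mature luminal-like one of 56 cells 40.7% and a basal-like one of 129 cells 34.1%. A second luminal progenitor-like SD cluster of 2311 cells, 90.4% of them from 1 rat and with a score of 0.343, reached 13%, and another of 1148 cells (score 0.224) reached 4.2%. The other 4 luminal progenitor-like SD clusters, of scores 0.646 to 0.943, lay at 0.111 to 1.05%. Cells under 2000 UMIs, left out of the thinned shares, were 330 of the ACI, 1310 of the sorted SD and 29892 of the whole-gland cells.

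**Figure D5:**
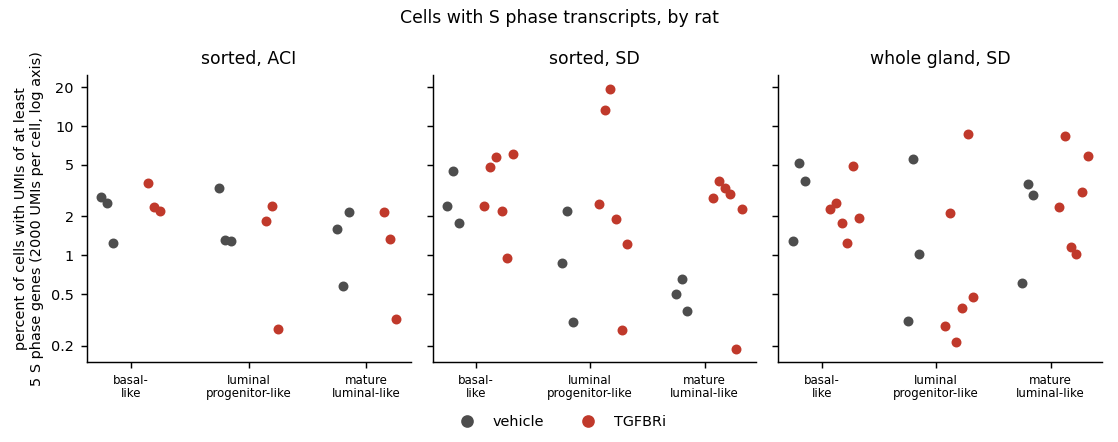
Percent of cells with UMIs of at least 5 S phase genes after thinning to 2000 UMIs per cell (vertical log axis), by class and treatment, in sorted ACI, sorted SD and whole SD gland cells. Each point is 1 rat, vehicle in grey and TGFBRi in red. Rats SD11 (13.4%) and SD12 (19.2%) stand above the other SD luminal progenitor-like points, and in mature luminal-like SD cells 5 of 6 treated rats lie above the vehicle rats.

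Whole glands of SD rats gave the stromal and immune classes, of which the 8 with at least 4000 cells are described. In endothelial-like cells 27 of 36 S phase genes were higher in treated rats (median 0.49), 10 rose and 2 fell, where 19.3% of all genes rose and 21.3% fell. CHAF1B had 0.916, 1.55 and 0.475 CPM in vehicle and 2.23 to 4.34 (median 3.09) in treated rats (log2 fold change 1.57, SE 0.54, adjusted p = 0.0128), and POLA1 had 2.20, 4.25 and 4.43 and 4.81 to 15.7 (median 10.8) (log2 fold change 1.38, SE 0.35, adjusted p = 0.00552). The 6 treated rats were above the 3 vehicle rats for both genes, and both calls held in all 9 fits that left out 1 rat. UHRF1, RFC2, DTL, BRIP1, CDC6 and TYMS, by 0.95 to 1.21, completed the 8 largest. In mural-like cells 7 of 30 rose and 3 fell (42.1% of all genes), with BRIP1, a helicase of interstrand crosslink repair, at 3.63, 3.43 and 2.46 in vehicle and 8.24 to 13.4 (median 11.1) in treated rats (log2 fold change 1.69, SE 0.36, adjusted p = 0.000620), without overlap. In fibroblast-like cells 5 of 37 rose and 3 fell (36.9% of all genes), with a median of -0.01.

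In T cell-like cells 4 of 40 rose and none fell, where 11.2% of all genes were called: CDCA7 had 17.9, 16.1 and 19.5 CPM in vehicle and 27.7 to 45.4 (median 30.0) in treated rats (log2 fold change 0.87, SE 0.21, adjusted p = 0.0224), without overlap, and MCM2, MCM3 and UNG rose by 0.41 to 0.59. In B cell-like cells 4 of 35 rose and USP1 fell (24.7% of all genes), led by BRIP1 (1.08) and CDCA7 (0.73). The thinned share was 4.53 to 5.67% in vehicle and 5.81 to 6.84% in treated B cell-like cells, where the largest cluster was 0 in treated (74.5%) and 2 in vehicle rats (49.4%).

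In mature luminal-like cells of the whole gland 33 of 37 S phase genes were higher (median 0.59), and 5 rose and PRIM1 fell, where 34.8% of all genes were called. SLBP had 40.3, 39.8 and 47.8 CPM in vehicle and 56.6 to 76.6 (median 69.97) in treated rats (log2 fold change 0.61, SE 0.14, adjusted p = 0.00443), without overlap and in all 9 fits that left out 1 rat. In luminal progenitor-like cells 21 of 32 were lower (median -0.28), and 4 fell and UNG rose (41.4% of all genes). NASP fell from 321, 227 and 350.2 to 108.1 to 199 (median 169) (log2 fold change -0.97, SE 0.21, adjusted p = 0.00221) and UNG rose from 10.3, 16.3 and 7.80 to 21.6 to 55.6 (median 34.3) (log2 fold change 1.51, SE 0.31, adjusted p = 0.00306). Neither overlapped between the groups. TK1 had 3.3, 16.3 and 7.32 in vehicle and 0 to 6.27 (median 0.730) in treated rats, with vehicle rat veh2 the highest of all (log2 fold change -2.17, SE 1.10, adjusted p = 0.0714). The G2/M list was lower in 38 of 39 genes there (median -1.36). Basal-like cells of the whole gland had 1 rise, MCM4 (0.94), and 1 fall, USP1 (-0.64), of 37 genes (23.5% of all genes). That class had 4853 treated and 806 vehicle cells, with 96.2% and 59.9% of them in 1 cluster. A cluster of 4602 cells, 701 treated and 3901 vehicle, scored highest for basal markers and stayed unnamed because a marker of another class was among its 10 leading genes and no basal one. With it added, a choice made after the data were seen, 21 of 37 S phase genes were higher (median 0.23) and 7 rose and 4 fell, where 52% of all genes were called. Mature luminal-like cells with unnamed clusters of 2015 and 158 cells added in the same way had 3 rises and 1 fall of 39 genes (median 0.42, 35.2% of all genes). For the luminal progenitor-like class the median was thus 1.49 in sorted and -0.28 in whole-gland SD libraries, which came from different rats, chemistry and cell selection, and that difference was not tested. They were also built from different clusters. The sorted SD class, where no minimum score was set, held clusters of scores down to 0.045 with casein or cell cycle genes among their 10 leading genes, whereas the whole-gland class was 1 cluster of 6078 cells. Whole-gland clusters of 4342 and 1090 cells, with casein genes such as CSN1S2B and CSN2 among theirs, scored highest for luminal progenitor markers but below 1 and stayed unnamed. They held 5.3% and 1.63% of treated and 2.5% and 0.164% of vehicle cells. Of their cells 4.38% and 67.7% had UMIs of at least 5 S phase genes unthinned, and after thinning 11.8% of the 516 and 14.1% of the 1065 cells with 2000 UMIs or more did. With them added to the class, a choice made after the data were seen, 33 of 39 S phase genes were higher in treated rats (median 0.37), so the direction of the median turned, with 1 rise and 1 fall where 35.2% of all genes were called.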

How the data were processed

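Bulk RNA-seq of FACS-sorted rat mammary cells and 10x single-cell RNA-seq were analysed. The authors aligned bulk reads to rn6 with STAR 2.5.1b, counted genes with HTSeq and deposited counts divided by DESeq2 1.30.1 size factors, a signal on a per-library scale. All 2526805 deposited values above 0 were whole reads after the factor was undone (within 0.001), so that totals of 4194912 to 52314784 reads per library (median 20100223) could be recovered. Of the reads in adult and estrogen libraries, 23.1 to 42.5% were assigned to no gene and left out. The deposited scaling was shared by basal and luminal libraries of young ACI rats. For single cells the authors deposited raw UMI counts of filtered cells from Cell Ranger 4.0.0 (sorted) or 7.0.0 (whole gland), with a median of 2820 to 15941 UMIs per cell in a library.

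Here limma 3.58.1 (R 4.3.3, trend and robust) was fitted to log2(value + 1) of each table over genes whose values summed to at least 10, with Benjamini-Hochberg adjustment over all genes and calls at 0.05. Fold changes are on that scale and understate low genes. Counts of unadjusted p below 0.05 cover the S phase genes only. The share of all genes with an unadjusted p below 0.05 is not given beside them, and each background share is at the adjusted threshold. These counts alone therefore do not set the S phase genes apart from all genes. edgeR 4.0.16 (quasi-likelihood) and DESeq2 1.42.0 on the recovered reads were alternatives. Single cells were scaled to 10000, clustered (2000 variable genes, 30 components, 20 neighbours, Leiden resolution 0.8) without cycle genes, and named from markers. No doublet caller was run. Clusters stayed unnamed with under 3 markers detected, with more of another class's markers among the 10 leading genes, with a score within 0.5 (log2) of that of another class with at least 3 markers detected or, in whole gland, below 1. Some named clusters still carried another class's markers: 343 T cell-like cells scored 1.388 for B cells, and 1806 luminal progenitor-like SD cells, with under 3 neutrophil markers detected, scored 0.749 for neutrophils against 0.683. UMIs were summed per rat and class of at least 20 cells and tested with edgeR at 0.1 after TMM scaling. The CPM values printed are scaled to library totals only. A fold change can therefore differ from them in size or, near 0, in sign. Libraries shared at most 0.52% of barcodes when sorted and 1.1 to 2.5% in whole gland. Scripts were tested on simulated data.

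The members, lists and comparisons were chosen with earlier results of these data known. Genes named were those called (the 8 with the largest change where there were more) or, where none was called, the 3 with the smallest p, beside 12 genes that cover the roles and were open to naming in any comparison: MCM2, MCM5, PCNA, TYMS, TK1, RRM2, CDC6, CDC45, UHRF1, CCNE2, E2F8 and CLSPN. Groups without overlap are a description of genes mostly picked by call or p, not further support. The share of all genes without overlap was not counted. Replicates were separate rats. The label of 1 young CD45+ rat gave day 9 in the title and day 7 in the day field, and day 7 was used.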

Additional observations from a re-analysis of the deposited data

Results flagged for a closer look

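The 3 values below stood far from the rest of their group by a test of the gap between the outermost rat and the next, all of them of the same treated rat, ly4, in whole glands. Of 44 groups of 4 to 6 rats examined, chance would be expected to mark about 1 in 20. In luminal progenitor-like cells ly4 had a summed S phase level of 1204 CPM, while the next of the 6 treated rats had 598.6 and the lowest 447.9. Its share of cells with UMIs of at least 5 S phase genes at 2000 UMIs was 8.656%, next to 2.128% and down to 0.2155%. In basal-like cells its share was 4.92%, next to 2.528% and down to 1.257%. In none of 12 pairs of treatment effects did the S phase level of every treated rat lie above vehicle in one and below it in the other. No member had an interaction term called by limma or edgeR. DESeq2 called 2 each for the luminal effect at day 14 minus day 0 and minus day 7, and 1 each for day 14 minus day 0 in basal and CD45+ cells of young ACI rats.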

How the results depend on the processing

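Counts of called S phase genes moved with nearly every choice. Counts printed without the share of all genes called in the same fit show only this movement, not a result about the S phase genes. The signs of single called genes were not followed through every alternative. The cause was not tested where the alternative's own construction does not give it. Thinning all libraries to the lowest total left 5 calls in luminal cells at day 0, as before.

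In luminal cells of young ACI rats, the 5 genes called at day 0 became 11 with DESeq2, 1 with edgeR, 2 with a mean value of at least 10, 15 with the compared groups alone and 13 without the libraries that stood apart (chosen after seeing the data). Day 7 went from 0 to 9 with DESeq2 and 5 without those libraries, and day 14 from 0 to 1 with DESeq2. The 2 calls of vehicle day 7 against day 0 became 21 with DESeq2, 6 with the mean filter, 0 with the compared groups alone and 17 without those libraries. The 1 call of vehicle day 14 against day 0 became 4 with DESeq2, 0 with edgeR, 7 with the compared groups alone and 6 without those libraries. The effects at day 14 minus day 0 and minus day 7 gave 2 calls each with DESeq2. In basal cells the 1 call at day 0 became 2 with DESeq2, 0 with edgeR, 4 with the compared groups alone, 2 with a pseudocount of 5 and 8 without those libraries. For vehicle day 14 against day 0 the count was 2 with DESeq2 and 1 each with the mean filter, a pseudocount of 5 and without those libraries. DESeq2 gave 2 calls for vehicle day 7 against day 0 and 1 for the effect at day 14 minus day 0, and the median effect at day 14 minus day 7 was 0.480 without those libraries. In CD45+ cells DESeq2 gave 2 calls at day 0, 1 for vehicle day 14 against day 0 and 1 for the effect at day 14 minus day 0, and the median of vehicle day 7 against day 0 was 0.274 with DESeq2 and 0.296 with edgeR.

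Basal against luminal cells shared their 18 rats (consensus correlation of 0.519). With the rat as a replicate block the counts of 4, 1 and 8 at days 0, 7 and 14 became 11, 7 and 15. The share of all genes called went from 20.5%, 14.7% and 19.3% to 34.3%, 26.1% and 32.1%. DESeq2 gave 7 and 2 at days 0 and 7, the compared groups alone 14 and 0, and the fit without the libraries that stood apart 11 and 5. The replicate numbers of the treatment groups mark no shared animal, so no other pairing was used.

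Elsewhere DESeq2 gave 2 calls for E2 and 1 for treatment without E2 in luminal cells, 5 in NMU basal and 6 in NMU luminal cells of tumor-bearing rats (2 with edgeR and 1 with TMM) and 1 in tumor-free luminal cells. The 1 call of adult virgin basal cells was 0 with the compared groups alone and without the library that stood apart. In single cells DESeq2 gave 3 calls in mature luminal-like ACI and 11 in basal-like SD cells, the unnamed clusters of the same best class, added after seeing the data, gave 2 calls in place of 5 in whole-gland luminal progenitor-like cells (median 0.368 in place of -0.284) and 11 in place of 2 in basal-like cells, and the mature luminal-like SD median of 0.76 was 1.37 over all cells of the luminal sort.

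Leaving out 1 rat at a time gave from 0 to 8 calls in luminal cells at day 0, from 0 to 7 (median 0.999 to 1.49) for vehicle day 7 and from 0 to 1 (median -0.811 to -0.398) for vehicle day 14 against day 0, from 0 to 2 for the effect at day 14 minus day 0, and a median of 1.07 to 1.52 for that at day 14 minus day 7. In basal cells it gave from 0 to 3 at day 0, from 0 to 1 for the effect at day 14 minus day 0, and a median of -0.816 to -0.331 at day 7. In CD45+ cells it gave from 0 to 2 calls at day 0, from 0 to 1 (median -0.495 to -0.0997) for the effect at day 14 minus day 0, from 0 to 4 (median 0.0124 to 0.122) for vehicle day 14 against day 0, and medians of -0.253 to -0.0762 at day 7, -0.0984 to 0.289 at day 14, 0.291 to 0.490 for vehicle day 7 against day 0, -0.0143 to 0.512 for the effect at day 14 minus day 7 and -0.786 to -0.476 for day 7 minus day 0. In luminal cells the fits that left out 1 rat called 0 to 15.6% of all genes at day 0 (0 to 0.501% lower). They called 0.0661 to 1.86% and 0.0395 to 0.224% for vehicle days 7 and 14, and 0 to 1.63% for the effect at day 14 minus day 0. In basal cells the share was 0.456 to 17.6% at day 0 and 0 to 4.23% for that effect. In CD45+ cells it was 0.529 to 7.08% at day 0, 0.0136 to 4.09% for that effect and 0.00678 to 7.95% for vehicle day 14. Basal against luminal gave from 2 to 3, from 1 to 3 and from 5 to 8 calls at days 0, 7 and 14. Those fits called 15.9 to 18.1%, 11.3 to 14.9% and 15 to 17.2% of all genes. Adult virgin basal cells gave from 0 to 1, E2 in luminal cells from 0 to 1, and NMU tumor-bearing luminal cells from 0 to 3, tumor-free luminal from 0 to 1 and tumor-bearing basal from 0 to 5 (5 without TGFBRi replicate 1), with a median of -0.239 to 0.270 in tumor-free CD45+ cells. In the same order of calls 3.76 to 12.8%, 0.657 to 3.92%, 0 to 10.8%, 0 to 14.3% and 0 to 9.01% of all genes were called. CD45+ cells of tumor-bearing rats with E2 gave from 0 to 11 calls, the 11 without TGFBRi replicate 2 (up to 13.2% of all genes in these fits), which left 1 treated rat assumed to vary like the other groups. Of 55 bulk comparisons 19 had a median of the other sign in at least 1 such fit, among them all 3 in adult basal cells, 5 of the 6 in NMU glands and none of the 8 in young ACI luminal cells. In single cells the calls ran from 4 to 8 in mature luminal-like ACI cells, from 0 to 15 in basal-like, 0 to 27 in luminal progenitor-like and 10 to 25 in mature luminal-like SD cells, and the ACI basal-like median from 0.0252 to 0.341. In whole glands they ran from 3 to 9 (median -0.00924 to 0.179) in B cell-like, 1 to 5 in T cell-like, 0 to 5 in basal-like, 7 to 19 (median 0.171 to 0.873) in endothelial-like, 3 to 15 (median -0.157 to 0.273) in fibroblast-like, 3 to 13 in luminal progenitor-like, 1 to 9 in mature luminal-like and 5 to 19 (median 0.207 to 0.734) in mural-like cells. Over the same fits the share of all genes called ran from 16.1 to 31.2% in mature luminal-like ACI cells, 3.83 to 41.2% in basal-like, 0.0178 to 43.7% in luminal progenitor-like and 11.4 to 42.5% in mature luminal-like SD cells, and in whole glands from 19.3 to 29.5% in B cell-like, 7.22 to 14.3% in T cell-like, 8.22 to 26.3% in basal-like, 28.3 to 51.9% in endothelial-like, 25.1 to 45% in fibroblast-like, 28.2 to 44.2% in luminal progenitor-like, 24 to 34.3% in mature luminal-like and 28.2 to 49.4% in mural-like cells.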
